A study of Mus musculus with 12 samples.

Results

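Chemokine RNA was examined in cultured mouse mesenchymal stromal cells (MSCs) through 9 genes chosen by name: Cxcl1, Cxcl5, Cxcl10, Cxcl12, Cxcl16, Ccl2, Ccl7, Ccl9 and Cx3cl1. They are 9 of the 55487 genes in the count table, and each was found by the Ensembl identifier that carries its symbol. The MSCs were primary cells grown from the bone marrow of wild-type C57BL/6 mice. The donors were young females. RNA sequencing covered 3 groups of 4 samples, namely MSCs left untreated (control), MSCs given A1 alone at 50 μM, and MSCs given the same dose of A1 with ovalbumin at 1 mg/ml (A1 + OVA), both for 6 h. A1 is an Accum variant in which cholic acid, a bile acid, is joined to the nuclear localization signal of hnRNPA1, and it was developed to let MSCs present a captured antigen such as OVA, the chicken egg white protein. All groups grew in AMEM with 10% fetal bovine serum and antibiotics, and the medium described for A1 + OVA also names insulin, without an amount. No group received OVA alone, so an effect of OVA without A1 was not measured, and OVA and any insulin in that medium cannot be told apart. For control MSCs no time is given, and the methods of the study state no vehicle for them. An effect of A1 and one of handling or a change of medium therefore cannot be told apart. Nothing in the labels places the 4 samples of a group in separate cultures or animals, and the p-values below measure only the spread between these samples.

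The samples held between 13702348 and 16881995 counts, and 11314 protein-coding genes were tested. Of the 12 MSC markers listed, 9 had at least 100 counts in every sample, among them Pdgfra, Pdgfrb, Vcam1, Col1a1 and Cd44. The RNA of other defining markers was scarce: Nt5e (CD73) had 7 to 14 counts per sample, Lepr had 6 to 16, and Thy1 (CD90) had 0 to 3 except in control replicate 2, with 17. Several of the 9 chemokines are also made by macrophages, and the 10 macrophage markers summed to between 9.47 and 14.7 normalized counts per 1000000 counts of the library (CPM), chiefly Cd14. Tyrobp and C1qa were at 0 in every sample, and Ptprc (CD45) had at most 4 counts. Of the 8 markers of other blood cells, 5 were at 0 and 7 had at most 3 counts in every sample. The exception was Itga2b, with 10 to 31 counts per sample, which was tested and passed in no comparison. The 5 endothelial markers summed to at most 0.916 CPM.

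Chemokines are small secreted proteins that guide leukocytes along concentration gradients by binding receptors coupled to G proteins. Stromal cells of the bone marrow use them to hold blood stem cells and B cell precursors in place, largely through Cxcl12, and to release monocytes and neutrophils through ligands of the Ccr2 and Cxcr2 receptors. The inflammatory members are switched on by NF-κB and interferon signaling and their messenger RNAs are often short-lived, whereas Cxcl12 is made constantly.

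The DNA before the start sites is printed for 4 members whose RNA changed, because they differ in the motifs for such factors. The RefSeq promoter entries at hand (GRCm38.p6) gave a start site for 5 of the 9 genes, namely Cxcl1, Cxcl10, Cxcl12, Ccl9 and Cx3cl1. For the others no entry matched, so their DNA was not searched. The NF-κB consensus (κB site), the core of the interferon-stimulated response element (GAAA, any 2 bases, then GAAA) and the GC box GGGCGG were searched on both strands of the 250 bases before each start. The windows below run 5′ to 3′ along the gene, and capitals mark every match. Cxcl1 lies at chr5:90890995-90891244 on the plus strand and Cxcl10 at chr5:92348890-92349139 on the minus strand. Cxcl12 lies at chr6:117168285-117168534 on the plus strand and Ccl9 at chr11:83578637-83578886 on the minus strand.
Cxcl1: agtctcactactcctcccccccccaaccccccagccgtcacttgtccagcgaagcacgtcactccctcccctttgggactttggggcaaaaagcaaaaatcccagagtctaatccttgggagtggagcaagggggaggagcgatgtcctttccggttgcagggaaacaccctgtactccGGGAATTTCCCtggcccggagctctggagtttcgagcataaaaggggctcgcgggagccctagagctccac
Cxcl10: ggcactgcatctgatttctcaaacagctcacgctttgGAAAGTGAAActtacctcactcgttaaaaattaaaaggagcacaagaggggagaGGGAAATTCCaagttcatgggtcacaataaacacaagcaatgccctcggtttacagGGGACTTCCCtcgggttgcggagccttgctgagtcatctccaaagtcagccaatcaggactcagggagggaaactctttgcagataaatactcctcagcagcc
Cxcl12: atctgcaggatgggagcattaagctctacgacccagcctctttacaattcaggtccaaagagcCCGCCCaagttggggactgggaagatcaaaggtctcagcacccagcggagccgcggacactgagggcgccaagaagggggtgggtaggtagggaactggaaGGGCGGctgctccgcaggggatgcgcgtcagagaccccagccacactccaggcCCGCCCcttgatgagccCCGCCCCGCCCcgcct
Ccl9: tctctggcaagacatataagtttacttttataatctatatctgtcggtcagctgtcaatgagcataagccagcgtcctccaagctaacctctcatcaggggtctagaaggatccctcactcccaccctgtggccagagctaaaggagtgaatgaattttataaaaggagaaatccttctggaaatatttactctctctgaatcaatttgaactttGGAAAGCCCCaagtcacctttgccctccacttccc

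The capitals in Cxcl1 are a palindromic run read as κB matches that overlap, beginning 71 and 70 bases before the start. Cxcl10 held κB matches beginning 159 and 103 bases before the start and an interferon element at 213 bases. The window of Ccl9 held 1 κB match, at 35 bases. In contrast, the Cxcl12 window held 5 GC boxes and no match to the other motifs, and its GC boxes at 16 and 11 bases share bases. The window of Cx3cl1 held a GC box at 27 bases. Across 32851 promoters, 3.9% of windows of this length held the κB consensus, 2.98% the interferon element and 32.7% a GC box. A match describes the letters and is not evidence of binding, and a window without a match says nothing about the factor.

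All 9 genes passed the filter on low counts, so none was left untested, but they differed widely in abundance. Cxcl12, Ccl7, Ccl2, Ccl9, Cxcl1 and Cx3cl1 had at least 329 counts in every sample. Cxcl10 with 13 to 50 counts per sample, Cxcl16 with 11 to 25 and Cxcl5 with 0 to 33, were scarce. Per kilobase of exon, Cxcl12 led in control MSCs with 478 ± 15.9 CPM per kb (SD, n = 4), and Ccl7 followed with 469 ± 14.7, the samples of these genes overlapping. Ccl2 stood at 205 ± 6.77, Cxcl1 at 106 ± 5.37 and Ccl9 at 35.1 ± 2.99, each separate from its neighbours in every sample. Cx3cl1 was at 5.64 ± 0.483 CPM per kb, and Cxcl10, Cxcl5 and Cxcl16 followed at 1.22, 0.695 and 0.311. The order changed in treated cells. Ccl7 was first in A1-treated MSCs at 351 ± 12.02 CPM per kb and in A1 + OVA at 465 ± 17.1. Ccl2 and Cxcl12 overlapped behind it, at 189 ± 10.4 and 185 ± 7.78 in A1 and at 215 ± 6.10 and 207 ± 6.98 in A1 + OVA. With the length of the longest transcript in place of the summed exons, Cxcl12 moved ahead of Ccl2 in both treated groups, to 269 and 301 CPM per kb, since its 4 annotated transcripts cover 8.18 kb of exon in all and the longest is 5627 bases. In control MSCs that length put Cxcl12 at 695 CPM per kb, above Ccl7 at 469. Ccl9 was above Cxcl1 in both treated groups, where in control MSCs Cxcl1 was above Ccl9.

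**Figure D1:**
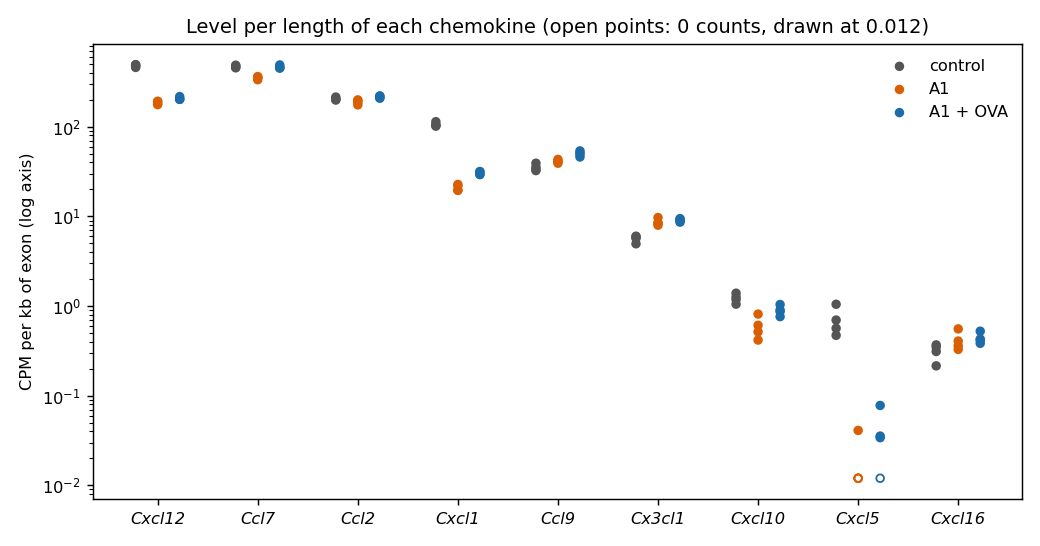
Level of each chemokine per kilobase of exon in every sample, on a log axis, with the genes ordered by their level in control MSCs and open points for samples with 0 counts. By summed exon length, Cxcl12 and Ccl7 overlap at the top with 478 and 469 CPM per kb in control MSCs, and Cxcl1 crosses below Ccl9 in both treated groups.

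The first comparison asked what A1 alone did to chemokine RNA. Relative to control MSCs, 8 of the 9 genes passed edgeR's quasi-likelihood test at an adjusted p under 0.05, 6 of them lower and 2 higher. Across all tested genes 62.7% passed, 31.1% lower and 31.7% higher, so that passing was common. When a log2 fold change of 0.5 or more in size was also required, 5 members remained, 4 lower and 1 higher, where 21% of tested genes did, 11.6% lower and 9.41% higher. The genes that fell furthest were the neutrophil attractants Cxcl1 and Cxcl5, the niche factor Cxcl12 and the interferon-inducible Cxcl10, and the gene that rose past this line was the membrane-anchored Cx3cl1. The median log2 fold change of the 9 genes was -0.42, beside 0.00 over all tested genes. In 5 members every A1 sample was below every control sample, and in 2 every one was above, where 26.4% and 28% of tested genes were separated in these directions. Cxcl5 is among the lower genes in each of these counts, although it passed the filter on low counts only through the control group. With at least 10 counts required in every sample, which leaves Cxcl5 out, 7 members passed and 4 met the fold condition. In these bulk samples, fewer cells of a type and less RNA per cell cannot be told apart.

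The second comparison set A1 + OVA against the same 4 control samples, so that the values of both treated groups share their controls. Here 6 members passed, 4 lower and 2 higher, against 57.6% of all tested genes, 27.9% lower and 29.7% higher. With the fold condition, 3 were lower and 2 higher, where 17.7% of all tested genes met it, 8.79% lower and 8.92% higher. Of the 2 higher genes, Ccl9 lay at the line with 0.51. It fell below the line with upper-quartile scaling (0.49) and with total counts alone (0.44). The samples did not overlap for 4 genes that were lower and 3 that were higher, and 24% and 25.4% of tested genes were separated in these ways. Cxcl5 is again among the lower genes in each count. With at least 10 counts required in every sample, which leaves it out, 5 members passed and 4 met the fold condition. The median log2 fold change of the members was -0.01.

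The third comparison asked what adding OVA to A1 changed. There, 5 members passed, all higher in A1 + OVA, where 12.9% of tested genes passed, 6.05% as higher and 6.81% as lower. These were Cxcl1, Cxcl12, Ccl2, Ccl7 and Ccl9, and their samples did not overlap between the treated groups, as for 8.56% of tested genes in this direction and 9.58% in the other. Cxcl1 was the only member that also met the fold condition, which 1.2% of tested genes met, 0.769% as higher and 0.433% as lower. All 9 members had a positive log2 fold change, where 5856 of the 11314 tested genes did. The median of the members was 0.28, beside 0.01 over all tested genes. Cxcl5, Cxcl10, Cxcl16 and Cx3cl1 did not pass, so their direction is uncertain.

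**Figure D2:**
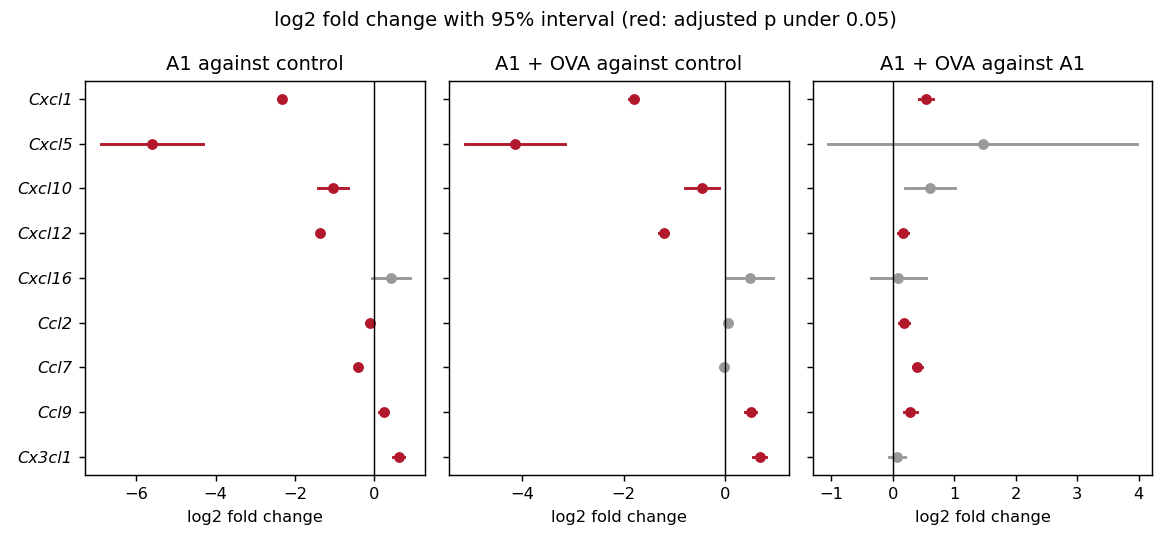
log2 fold change of each chemokine (points) with its 95% interval (lines) in the 3 comparisons, in red where the adjusted p was under 0.05, each panel with its own horizontal range. The falls of Cxcl5 (-5.61), Cxcl1 (-2.34) and Cxcl12 (-1.37) with A1 stand apart from the small differences of Ccl2 and Ccl9. A difference of Cxcl5 was fixed by the filter on low counts. All points of A1 + OVA against A1 lie above 0, but Cxcl5, Cxcl10, Cxcl16 and Cx3cl1 did not pass there.

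Cxcl1 (ENSMUSG00000029380, chr5:90891241-90893115, plus strand) encodes a neutrophil attractant that acts through Cxcr2, and the palindromic κB run above lies before its start. Control MSCs held 196, 214, 196 and 190.4 CPM in replicates 1 to 4. A1-treated MSCs held 36.6, 42.6, 41.1 and 36.9 CPM, and A1 + OVA held 58.9, 55.1, 54.9 and 59.3. The 3 groups did not overlap, and even the highest treated sample was far below the lowest control. Cxcl1 fell 5.07-fold with A1, a log2 fold change of -2.34 (SE 0.05, edgeR adjusted p = 3.22e-19). With A1 + OVA it fell 3.49-fold (log2 fold change -1.80, SE 0.05, edgeR adjusted p = 1.08e-17). Between the treated groups it was 1.45-fold higher with OVA (log2 fold change 0.54, SE 0.06, edgeR adjusted p = 1.82e-06).

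Cxcl5 (ENSMUSG00000029371, chr5:90759360-90761624, plus strand) encodes another Cxcr2 ligand and lies in the same chromosomal cluster. Its counts were 21, 33, 17 and 14 in control MSCs, 0, 1, 0 and 0 with A1, and 2, 1, 1 and 0 with A1 + OVA. The RNA was thus near the limit of detection in all treated samples, where a count of 0 still allows up to 3 counts, or 0.217 to 0.229 CPM in A1 samples. Summed over samples, the level in control MSCs was 70.1 times that in A1 (85 counts against 1, 95% counting interval 12.3 to 2803). Against A1 + OVA the ratio was 19.9 (85 counts against 4, interval 7.48 to 74.6). Cxcl5 passed the filter only through the control group, so that a difference was fixed by that filter, and with at least 10 counts required in every sample it was not tested. Its edgeR adjusted p was 1.80e-07 for A1 and 4.11e-07 for A1 + OVA, and its fitted log2 fold changes of -5.61 and -4.15 depend on how counts of 0 are handled. Control replicate 2, highest in Cxcl5, was also the sample with 17 counts of Thy1, and their relation was not tested. Without it the log2 fold changes of Cxcl5 were -5.33 and -3.87. They ranged from -7.31 (without A1 replicate 2, the one with a count) to -5.30 for A1 and from -4.69 (without A1 + OVA replicate 1) to -3.74 (without A1 + OVA replicate 4) for A1 + OVA. At 1 and 4 counts, a difference between the treated groups was not detectable.

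Cxcl10 (ENSMUSG00000034855, chr5:92346638-92348889, minus strand) attracts activated T cells through Cxcr3 and is a classical interferon target, with the interferon element shown above. Control MSCs held 2.85, 2.36, 2.66 and 3.14 CPM. A1 samples held 0.940, 1.37, 1.83 and 1.16 CPM, and A1 + OVA samples 1.96, 2.34, 1.72 and 2.03. Control samples were all above both treated groups, narrowly so for A1 + OVA, and the treated groups overlapped each other. Cxcl10 fell 2.07-fold with A1 (log2 fold change -1.05, SE 0.19, edgeR adjusted p = 7.95e-05). With A1 + OVA the log2 fold change was -0.44 (SE 0.17, edgeR adjusted p = 0.0318). That call was lost with DESeq2 (adjusted p = 0.0802) and without control replicate 1 (0.0605) or 4 (0.0967) or A1 + OVA replicate 1 (0.0583), 3 (0.0942) or 4 (0.0557), so at this depth it is uncertain. Between A1 + OVA and A1 the log2 fold change was 0.61 (SE 0.21, edgeR adjusted p = 0.0608), which passed only without A1 replicate 3 (0.0268).

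Cxcl12 (ENSMUSG00000061353, chr6:117168535-117181367, plus strand), the ligand of Cxcr4 that retains blood stem cells in the marrow, was the most abundant of the 9 by counts. It took 0.383% to 0.41% of all counts in control MSCs, 0.139% to 0.151% with A1 and 0.159% to 0.173% with A1 + OVA. Control samples held 4029, 4004, 3854 and 3753 CPM. A1 samples held 1568, 1477, 1569 and 1444 CPM, and A1 + OVA samples held 1655, 1686, 1654 and 1775. All 3 groups were separate, although the treated groups lay close together. Cxcl12 fell 2.58-fold with A1 (log2 fold change -1.37, SE 0.04, edgeR adjusted p = 3.05e-17) and 2.31-fold with A1 + OVA (log2 fold change -1.21, SE 0.04, edgeR adjusted p = 2.73e-16). By CPM it ranked 9th among tested genes in control MSCs, 46th with A1 and 42nd with A1 + OVA. The difference between treated groups was small (log2 fold change 0.16, SE 0.04, edgeR adjusted p = 0.0106) and was not called without A1 replicate 4 (adjusted p = 0.055).

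**Figure D3:**
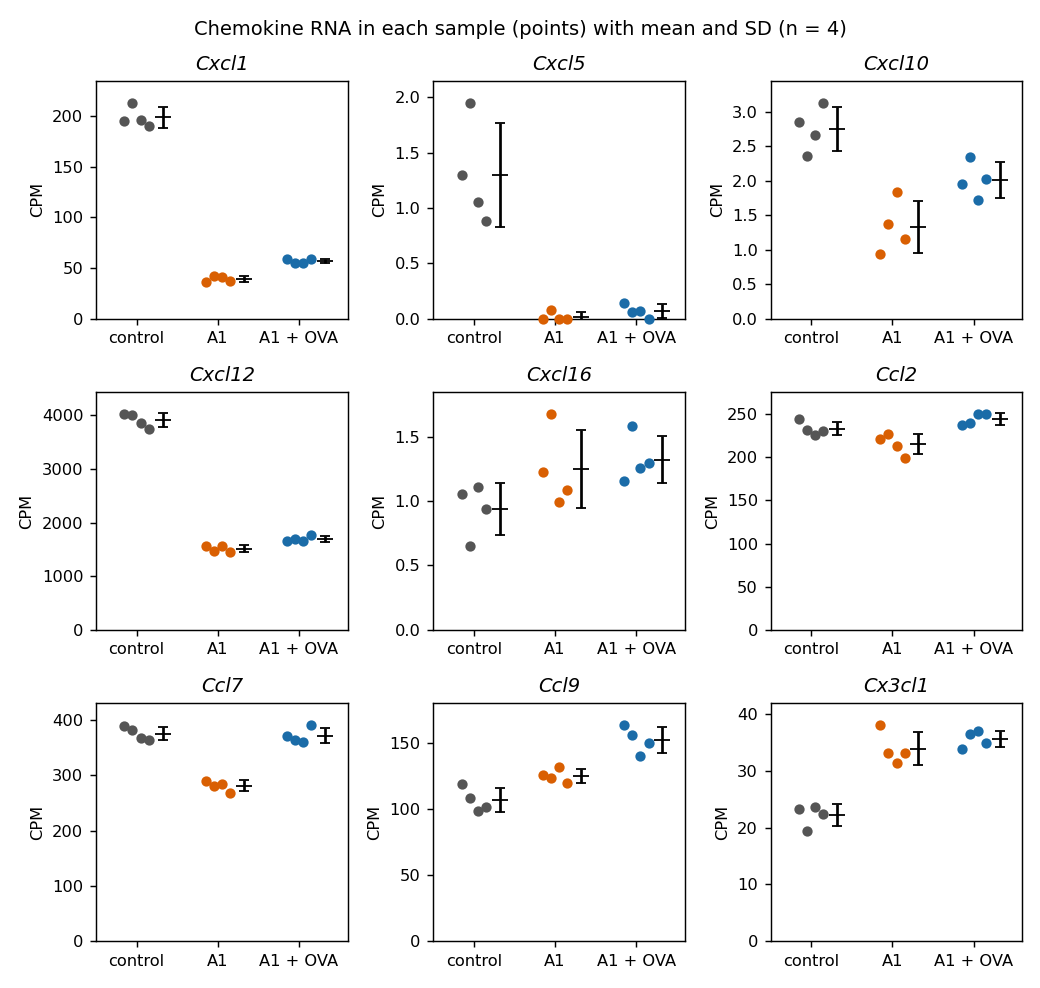
Normalized level (CPM) of each chemokine in every sample (points) beside the mean and SD of each group (n = 4), each panel from 0 on its own axis. Cxcl1 drops from 199 CPM in control MSCs to 39.3 with A1 and 57.1 with A1 + OVA, while Ccl7 is at 376, 281 and 372 CPM.

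Among the monocyte attractants of the CC family, Ccl2 (ENSMUSG00000035385, chr11:82035571-82037453, plus strand), the main Ccr2 ligand, held 244, 232, 226 and 231 CPM in control MSCs. It held 221, 227, 213 and 199.8 CPM with A1, and 237, 239.5, 249.9 and 251 with A1 + OVA. Control and A1 samples overlapped, as did control and A1 + OVA samples, whereas every A1 + OVA sample was above every A1 sample. With A1 the log2 fold change of Ccl2 was -0.12 (SE 0.04, edgeR adjusted p = 0.0182), and this call was lost without control replicate 1 (0.0589) or A1 replicate 4 (0.0744). With A1 + OVA it was 0.07 against control (edgeR adjusted p = 0.172, 95% interval -0.01 to 0.15) and 0.18 against A1 (SE 0.04, edgeR adjusted p = 0.00543).

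Ccl7 (ENSMUSG00000035373, chr11:82045712-82047525, plus strand) encodes another Ccr2 ligand and starts 8.3 kb beyond the end of Ccl2. Control samples held 389, 382, 367 and 365 CPM. A1 samples held 291, 281, 285 and 268 CPM, and A1 + OVA samples 372, 365, 361 and 392. The A1 samples were all below the other groups, which overlapped each other. Ccl7 fell 1.34-fold with A1 (log2 fold change -0.42, SE 0.04, edgeR adjusted p = 5.54e-09) and was 1.32-fold higher in A1 + OVA than in A1 (log2 fold change 0.40, SE 0.04, edgeR adjusted p = 6.21e-07). Against control, its level with A1 + OVA gave a log2 fold change of -0.01 (edgeR adjusted p = 0.789), with a 95% interval of -0.09 to 0.06. The ratio of Ccl7 to Ccl2 per kb was 2.29 ± 0.0424 in control, 1.86 ± 0.0680 with A1 and 2.17 ± 0.0814 with A1 + OVA (SD, n = 4).

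Ccl9 (ENSMUSG00000019122, chr11:83572919-83578636, minus strand) encodes a Ccr1 ligand that attracts myeloid cells. It held 119.3, 108, 98.8 and 101.7 CPM in control MSCs, 126, 124, 132 and 119.4 with A1, and 164, 156, 140.2 and 150.1 with A1 + OVA. The lowest A1 sample was only just above the highest control, and A1 + OVA was clear of both. Ccl9 rose with A1 (log2 fold change 0.23, SE 0.06, edgeR adjusted p = 0.00124), and more with A1 + OVA (log2 fold change 0.51, SE 0.05, edgeR adjusted p = 5.13e-08). The difference between the treated groups was 0.28 on the log2 scale (SE 0.05, edgeR adjusted p = 0.00142). The 10 macrophage markers summed to 9.47 to 10.5 CPM in control MSCs, 11.98 to 14.7 with A1 and 10.7 to 13.1 with A1 + OVA, and their part in the change of Ccl9 was not tested. Most of the sum was Cd14, with means of 7.59, 11.3 and 9.24 CPM in that order. Among markers too scarce to test, the summed counts of Lyz2 were 21, 6 and 13, and those of Csf1r 19, 16 and 25. Of the 2 markers abundant enough to test, Cd14 rose with A1 and with A1 + OVA and was lower in A1 + OVA than in A1 (log2 fold changes 0.57, 0.29 and -0.29). Cd68 passed in no comparison (-0.10, 0.22 and 0.32).

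Cx3cl1 and Cxcl16 encode the membrane-anchored chemokines, which hold leukocytes on the cell surface and are cut into soluble attractants by Adam10 and Adam17. Cx3cl1 (ENSMUSG00000031778, chr8:94772009-94782427, plus strand) held 23.3, 19.4, 23.6 and 22.4 CPM in control MSCs, 38.1, 33.1, 31.4 and 33.1 with A1, and 33.9, 36.5, 37.1 and 35.0 with A1 + OVA. Both treated groups were above control in all samples and overlapped each other. Cx3cl1 rose 1.53-fold with A1 (log2 fold change 0.62, SE 0.07, edgeR adjusted p = 1.23e-07) and 1.61-fold with A1 + OVA (log2 fold change 0.69, SE 0.07, edgeR adjusted p = 2.02e-08). Between the treated groups the log2 fold change was 0.07 (edgeR adjusted p = 0.531, 95% interval -0.06 to 0.20).

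Cxcl16 (ENSMUSG00000018920, chr11:70453983-70459984, minus strand), the ligand of Cxcr6, was scarce throughout. Its counts were 17, 11, 18 and 15 in control MSCs, 17, 22, 13 and 15 with A1, and 16, 25, 19 and 21 with A1 + OVA. The A1 samples overlapped both other groups, while in CPM every A1 + OVA sample was above every control sample. No comparison passed, with log2 fold changes of 0.41 for A1 (SE 0.24, edgeR adjusted p = 0.149) and 0.50 for A1 + OVA (SE 0.23, edgeR adjusted p = 0.0713). The 95% interval for A1, -0.07 to 0.89, includes changes as large as that of Cx3cl1, so the depth did not settle this gene.

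The makeup of chemokine RNA also differed between groups. Summed per kb over the 9 genes, the level was 1301 ± 40.9 CPM per kb in control MSCs, 797 ± 28.9 with A1 and 977 ± 27.2 with A1 + OVA (SD, n = 4). Cxcl12 supplied 36.7% of this sum in control MSCs, 23.2% with A1 and 21.2% with A1 + OVA. With the longest transcript as its length, these shares of Cxcl12 were 45.5%, 30.2% and 27.8%. The share of Cxcl1 went from 8.16% to 2.63% and 3.11%. In turn, Ccl7 made up 36.0%, 44.1% and 47.5%, Ccl2 15.8%, 23.7% and 21.97%, and Ccl9 2.70%, 5.16% and 5.13%. These shares describe RNA per length and depend on one another by construction.

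**Figure D4:**
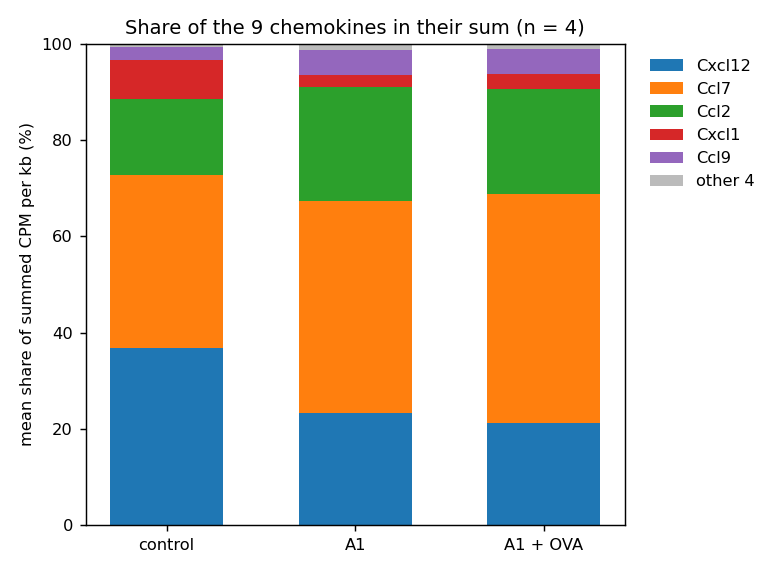
Mean share of each chemokine in the summed CPM per kb of the 9 genes, by group (n = 4), stacked to 100%. The Cxcl12 band narrows from 36.7% in control MSCs to 23.2% with A1 and 21.2% with A1 + OVA, and the Ccl7 and Ccl2 bands widen.

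Few other chemokines were detected. Of 29 further chemokine genes listed, 26 had at most 9 counts in every sample and 6 had none, and the 9 members held 99.0% to 99.7% of all chemokine counts. This included genomic neighbours: of 15 chemokine genes within 100 kb of a member, 14 had under 10 counts in every sample. Cxcl2, 10.8 kb from Cxcl1, had at most 1 count, and Ccl11, Ccl12 and Ccl8, beside Ccl2 and Ccl7, had at most 2. Cxcl9, an interferon-inducible gene 18.6 kb from Cxcl10, had 27 counts in all in control MSCs, 5 with A1 and 8 with A1 + OVA, and was too scarce to test (chosen after its values were seen). Of the 29 genes, 3 were tested, namely Cxcl14, Ccl5 and Ccl25, of which only Cxcl14 passed. Cxcl14, a chemokine of epithelia and stroma, rose from 1.19 ± 0.139 CPM in control MSCs to 9.23 ± 0.768 with A1 (SD, n = 4; log2 fold change 2.94, SE 0.13, edgeR adjusted p = 2.88e-14). With A1 + OVA it was at 5.26 ± 0.214 CPM, lower than with A1 (log2 fold change -0.81, SE 0.10, edgeR adjusted p = 1.45e-05), whereas the 5 members that passed there were higher.

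**Figure D5:**
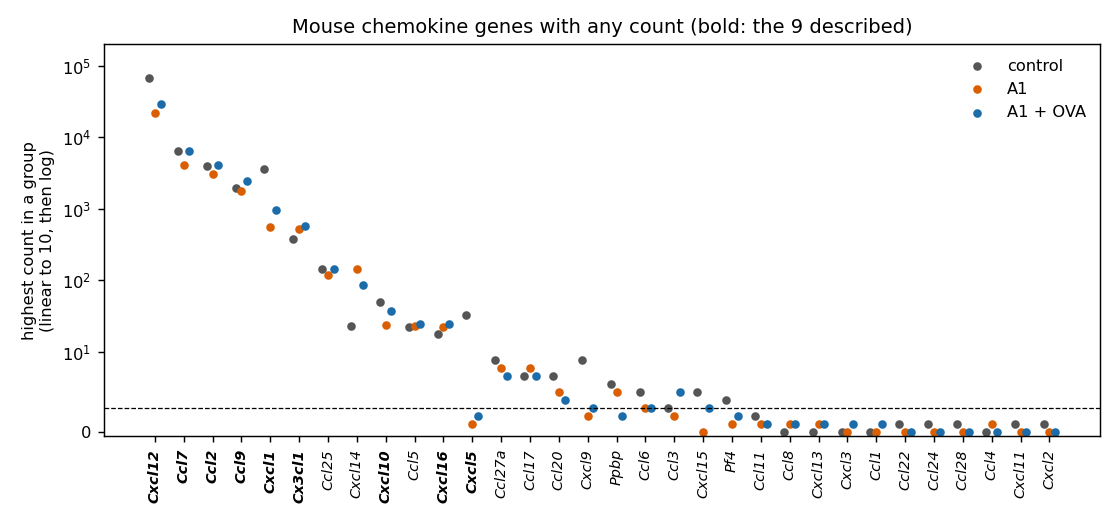
Highest raw count in each group for every chemokine gene with any count, ordered by total count, on an axis linear to 10 and logarithmic above, with a dashed line at 3 counts. The 9 genes described are in bold, and Cxcl14 is the one further gene that rises clearly above its control samples.

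The MSCs carried almost no RNA for the receptors of these ligands. None of 23 chemokine receptor genes was abundant enough to test, 20 had at most 3 counts in every sample, and the highest count of any was 5. Cxcr2 and Ccr2, receptors of Cxcl1 and Ccl2, had at most 1 count, and Ackr3, a scavenger of Cxcl12, had at most 2.

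Among 13 genes that cut or hold chemokines, 11 were tested, and with A1 4 rose, 4 fell and 3 did not pass, where 31.7% and 31.1% of all tested genes rose and fell. Sdc4, a heparan sulfate proteoglycan that binds chemokines at the cell surface, rose from 115 to 260 CPM (log2 fold change 1.17, SE 0.05, edgeR adjusted p = 2.65e-15). The proteoglycans Sdc3 (0.62) and Sdc2 (0.47) rose as well, as did the protease Mmp14 (0.40), while the glypican Gpc6 fell by 0.71 on the log2 scale. Adam17, which sheds Cx3cl1, fell with A1 from 136 to 89.3 CPM (log2 fold change -0.61, SE 0.04, edgeR adjusted p = 1.01e-11). Adam10, named here after its values were seen because it sheds Cxcl16 and Cx3cl1, fell by 0.34 (SE 0.04, edgeR adjusted p = 1.94e-07). Both sheddases fell in RNA where Cx3cl1 rose, and a relation between these changes was not tested. Dpp4, the peptidase that inactivates Cxcl12, was at 0 in every sample. With A1 + OVA, 4 of these genes rose and 4 fell against control (29.7% and 27.9% of all tested genes), and against A1 only Gpc6 passed, higher by 0.31 (12.9% of all tested genes passed there).

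A further list held 25 genes of chemokine induction, inhibitors of it included, and of the decay of chemokine messenger RNA. Of these, 21 were tested, and with A1 5 rose, 13 fell and 3 did not pass. Over all tested genes 31.7% rose and 31.1% fell. Inhibitors such as Nfkbia (-0.17) and Tnfaip3 (-0.13) were among those that fell, so the counts give no direction of induction. Il1a, a cytokine that induces Cxcl1 in many cells, rose from 0.260 ± 0.0873 CPM (3 to 6 counts) in control MSCs to 3.46 ± 0.447 with A1 (SD, n = 4; log2 fold change 3.69, SE 0.25). It passed the filter on low counts only through the treated groups, so that a difference was fixed by that filter. The interferon gamma receptor chain Ifngr1 fell by 0.74 on the log2 scale, whereas its partner Ifngr2 rose by 0.60. The mRNA decay factors Zfp36l1 and Zfp36 fell by 1.47 and 0.46. Tnf, Ifng and Ifnb1 had at most 1 count in any sample. With A1 + OVA, 5 of the 21 rose and 11 fell against control (29.7% and 27.9% of all tested genes), and against A1 4 were higher and 1 lower (6.05% and 6.81%).

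Genes whose profile over the 12 samples lay nearest to a member were found by the root mean square difference of centered log2 CPM among 10861 genes. Cxcl12 was nearest to Rassf2 (0.0474) and Nsdhl (0.0620), with 16 genes within 0.1. Cxcl1 had no gene within 0.1, the nearest being Ccn3 (0.171) and Igf1 (0.192). Ccl7 was nearest to Coprs (0.0710) and Mkrn2 (0.0721), and Ccl9 to Tmeff1 (0.0760) and Pdcd2 (0.0849). Ccl2, which varied little, had 589 genes within 0.1, the nearest being Akap1 (0.0464) and Senp8 (0.0504). Cx3cl1 was nearest to Whrn (0.0558) and Fam129b (0.0593). The scarce genes had only distant neighbours, Pygo1 (0.171) and Ccdc136 (0.189) for Cxcl10 and Tesk1 (0.168) and Mif (0.170) for Cxcl16.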

How the data were processed

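The authors prepared stranded polyA libraries from 12 samples, aligned the reads to GRCm38 with STAR (version 2.7), counted them per gene by strand with featureCounts (version 2.0), and deposited raw counts without normalization. The counts were read as deposited. Samples were grouped by their titles. Gene symbols, biotypes and exon lengths came from GENCODE M21 (GRCm38), which holds 99.53% of the identifiers.

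Protein-coding genes that passed filterByExpr were scaled by TMM and compared with edgeR (version 4.0.16, in R 4.3.3) by its quasi-likelihood method in 1 fit of 12 samples with group as the only term. Benjamini-Hochberg adjustment ran over 11314 genes. CPM (counts scaled to library size) use TMM-scaled totals, and 95% intervals are 1.96 SE. The test was checked on simulated counts. DESeq2 (version 1.42.0), other scalings, filters and the omission of each sample were alternatives. Counting intervals and limits cover counting error only, and 4 samples per group limit the precision.

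The 9 genes and all lists were chosen with earlier results of these data known. All 9 genes are named. Of each further list, up to 6 genes with the largest change among those passing with A1 are named. Genes with at most 3 counts in every sample and chemokine neighbours within 100 kb are named too. So are, for each member but Cxcl5, the 2 genes of nearest profile with a mean of at least 1 CPM. The cell type markers, Adam10, Cxcl9, Ccl5 and Ccl25 stand outside this rule and were named after their values were seen. One gene that this rule would name is not reported here. Art3, Zmynd15 and Gm17268 overlap Cxcl10, Cxcl16 and Ccl2 on the opposite strand and had at most 4 counts.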

Additional observations from a re-analysis of the deposited data

Results flagged for a closer look

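The count of Cxcl5 in A1 replicate 2 stood apart from the other A1 samples, with a gap of 1.0 times the range of the group, above the 95% critical value of Dixon's test for 4 samples. It was 1 count against 0 in each of the others. For continuous values, chance gives a gap past the critical value in about 1 in 20 groups, and 27 groups of 4 values were examined. That rate does not apply here, since any single nonzero count among counts of 0 gives a gap of 1.0.

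The change against control differed between the treated groups for 5 genes, by edgeR's test of A1 + OVA against A1. The difference was 0.54 on the log2 scale for Cxcl1 (adjusted p = 1.82e-06), 0.40 for Ccl7 (adjusted p = 6.21e-07), 0.28 for Ccl9 (adjusted p = 0.00142), 0.18 for Ccl2 (adjusted p = 0.00543) and 0.16 for Cxcl12 (adjusted p = 0.0106). Each was higher with OVA in 4 of 4 samples than in any sample with A1 alone.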

How the results depend on the processing

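Of 536 log2 fold changes of members recomputed under alternatives, 526 kept their side of the threshold, and no called direction was reversed. Values that did not pass could change sign, as for Cxcl16 between the treated groups (-0.01 to 0.26 when each sample was left out). Members passing numbered 8 with A1 (7 to 8 over all alternatives), 6 with A1 + OVA (5 to 6) and 5 between the treated groups (4 to 6). With the fold condition they numbered 5 with A1 (4 to 5) and 5 with A1 + OVA (4 to 6, and 5 in 12 of 20 alternatives). The same counts as in the report came from a fit with the replicate number as a block, which changed no call of a member. Same-numbered samples of different groups had deviations with a mean correlation of 0.021 (-0.132 to 0.156, 12 pairs), beside -0.007 (-0.183 to 0.175, 36 pairs) for different numbers. These values cannot show whether same-numbered samples shared a culture or an animal, and the labels do not say. The members passing with a log2 fold change of at least 0.5 between A1 + OVA and A1 were 1, and ranged from 1 to 2 when each sample was left out, with Cxcl10 the gene gained without A1 replicate 3. Scaling by total counts alone moved the median of all genes by -0.0805 with A1, the largest shift among the scalings. Requiring 10 counts in every sample left Cxcl5 out, since its treated samples hold fewer. Depth limits Cxcl5, Cxcl10 and Cxcl16.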
